A study of Mus musculus with 24 samples.

Results

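The swimming by miR-21 interaction is the difference between the effect of swimming in mice given a miR-21 vector and the effect of swimming in mice given an empty vector. It was computed for each gene as (miR-21 swimming minus miR-21 rest) minus (empty swimming minus empty rest), from 23 heart libraries of the 24 in the series. The genes with counts high enough to test were 13501 of the 21878 in the count table, and none was chosen by its values. All mice were ovariectomised, received the viral vector AAV9, underwent myocardial infarction (MI), and had their hearts taken 3 weeks after it. The empty vector rest group (AAV9-Empty, Control; 6 libraries) did not swim. The empty vector swimming group (AAV9-Empty, Swim; 6 libraries) trained by swimming before the MI. The miR-21 vector rest group (AAV9-OE miR-21, Control; 6 libraries) did not swim, and the miR-21 vector swimming group (AAV9-OE miR-21, Swim) trained and gave 5 libraries to the count table, with its replicate 6 not analysed here. The design asks whether raised miR-21 alters what training before an infarction does to the heart. No group lacked the ovariectomy or the infarction, and the labels name no strain, age or vector promoter.

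A microRNA is a short RNA that guides a silencing complex to matching sites, mostly in the 3′ untranslated regions (UTRs) of messenger RNAs, and lowers their stability or translation. miR-21 is abundant in the heart, is raised in cardiac fibroblasts after injury, and has been studied both as a protector of heart muscle cells and as a driver of fibrosis. AAV9 carries genes to heart muscle efficiently. An interaction of 0 (log2) means that swimming changed a gene by the same factor under both vectors. A positive interaction means that swimming raised the gene more, or lowered it less, with miR-21 than with the empty vector, and a negative one means the opposite.

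The mature miRNA made from the guide strand of the mouse gene is shown first, because its seed fixes which UTR sites were counted. Capitals mark the seed (bases 2 to 8, RefSeq table of build GRCm38.p6), and the sequence is written with U.
mmu-miR-21a-5p: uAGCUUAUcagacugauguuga
A 7-base match to this seed reads ATAAGCT on the DNA strand of the messenger, and it was searched on that strand alone in the longest annotated 3′ UTR of each gene. Of 13276 tested genes with a UTR of at least 30 bases, 1033 (7.78%) held the match. Among the genes called for the interaction below, 3 of 70 with a UTR (4.29%) held it. Among them were the caveola gene Cav2 (interaction -0.63) and the apolipoprotein gene Apol6 (4.84), so the interactions of genes with a match lay on both sides of 0. Their 29-base windows are shown with the match in capitals.
Cav2: tttaataaattATAAGCTtcaacctttta
Apol6: aattagcaatgATAAGCTatgagggtccc
The match started at base 1671 of the 2068-base UTR of Cav2 and at base 314 of 1162 in Apol6. The 2073-base UTR of Sox7, the gene named with miR-21 in the series title, held 0 matches to these letters. Genes with a match had a median interaction of -0.015 and those without 0.008. The count table holds no rows for microRNA genes, so the level of miR-21 itself was not measured.

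Libraries held 12744241 to 14657630 counts, and 0 of 253 pairs of libraries were identical. Heart muscle markers were high throughout, with Myh6, the main cardiac myosin heavy chain, at 22200 to 52300 CPM (counts scaled to a common library size). The 3 libraries that stood apart on the first principal component (43.9% of the variance) were replicates 2 and 5 of the empty vector rest group and replicate 2 of the miR-21 vector swimming group. Their summed level of 6 genes of fat cells (Adipoq, Cfd, Car3, Cidec, Plin1 and Retn, a set chosen after the values were seen) was 361, 294 and 333 CPM, against 0.767 to 21.2 CPM in the other 20. For 6 mesothelial genes (Upk3b, Upk1b, Msln, Lrrn4, Muc16 and Bnc1, chosen in the same way) replicate 2 of the miR-21 vector swimming group had 175 CPM and the others at most 33.2. Over all 20 listed adipocyte genes the 3 libraries had sums of 2562, 2313 and 2028 CPM, against 1757 to 2568 in the others. The 3 also had a mean log2 CPM over its tested members of 6.274, 6.183 and 6.025, against at most 4.82. Their neutrophil sums were 404.6, 318.9 and 1551 CPM, against at most 79.56, and their sarcomere sums 96370, 97020 and 80270, against at least 114200. The name rich in fat cell genes refers to the 6 fat cell genes, and other cell types differed too. Sample titles carry numbers under 2000 in both rest groups and in replicates 1 and 2 of the miR-21 vector swimming group, and numbers above it in the empty vector swimming group and in replicates 3, 4 and 5 of the miR-21 vector swimming group. What those numbers record is not stated, and with the empty vector they split the libraries exactly as swimming does, so the number and swimming cannot be told apart there. In tissue samples such as these, fewer cells of a type and less RNA per cell cannot be told apart. Nothing in the labels ties each library to its own animal; p-values therefore measure only the spread between these libraries, which may be technical.

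Swimming acted differently under the 2 vectors in 73 genes, which is 0.541% of those tested (edgeR quasi-likelihood test, Benjamini-Hochberg adjusted p under 0.05, called genes from here on). Of these, 44 (0.326% of all tested) had an interaction above 0 and 29 (0.215%) below 0. At an unadjusted p under 0.05 there were 2899 genes (21.5%), 1720 above 0 (12.7%) and 1179 below 0 (8.73%). The median interaction of all genes was 0.0079. An interaction compares 4 groups and is less precise than a comparison of 2, with a median standard error (SE) of 0.159 against 0.109 to 0.115 for each single comparison.

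Most called genes had the same shape. In 66 of the 73 the effects of swimming under the 2 vectors had opposite signs, in 7 they had the same sign with the larger effect under the empty vector, and in 0 was the larger effect of the same sign under miR-21. Over all 13501 genes the signs were opposite in 6835, and selecting genes for a large difference between the effects itself favours opposite signs. The empty vector swimming group had the highest of the 4 means in 28 of the 29 genes below 0, and the lowest in 38 of the 44 above 0, against 3370 and 3211 of all 13501 genes. In 17 of the 73 called genes (23.3%) every empty vector swimming library lay outside the range of the other 17 libraries, against 76 of all 13501 (0.563%). None of these shares is independent of the calls, since both rest on the same counts. Every library of the empty vector rest group lay outside the other 3 groups in 19 genes of the whole table (0.141%), of the miR-21 rest group in 10 (0.0741%) and of the miR-21 swimming group in 17 (0.126%), and the 76 of the empty vector swimming group were 56 above (0.415%) and 20 below (0.148%).

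The single comparisons behind the interaction differed in how many genes they called. With the empty vector 564 genes (4.18%) were higher and 443 (3.28%) lower with swimming, 1007 in all (7.46%), and 68 of the 73 were among them. There the title number and swimming cannot be told apart. With the miR-21 vector swimming raised 7 (0.0518%) and lowered 16 (0.119%), 23 in all (0.170%), and 4 of the 73 were among them. The miR-21 vector at rest raised 119 genes (0.881%) and lowered 185 (1.37%), 304 in all (2.25%), with 20 of the 73. Among swimming mice it raised 252 (1.87%) and lowered 366 (2.71%), 618 in all (4.58%), with 41 of the 73. These comparisons share libraries with the interaction, so the overlaps are descriptions. Across all 13501 genes the 2 swimming effects, which share no library, had a Pearson correlation of -0.449 and a Spearman correlation of -0.118, given as a description across genes, which are not replicates. The 3 libraries that stood apart lie in the empty vector rest and miR-21 swimming groups. Those groups enter the 2 effects with opposite signs, and the correlation without the 3 libraries was not computed.

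**Figure D1:**
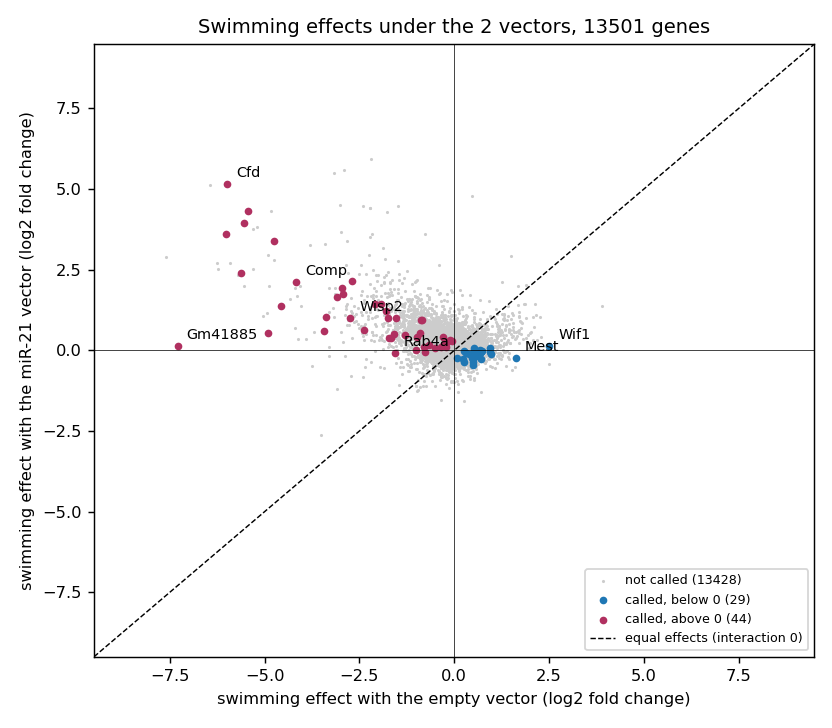
Each point is 1 gene, with the effect of swimming under the empty vector on the x axis and under the miR-21 vector on the y axis (both log2 fold change); the dashed line marks equal effects, and colours mark the 44 called genes above 0 and the 29 below 0. The called genes below 0 lie close to the x axis at positive values, and those with the largest interactions above 0, such as Cfd and Comp, lie at the upper left.

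To see which calls rest on 1 library, each of the 23 was left out in turn. The number of called genes then ran from 18, without replicate 5 of the empty vector swimming group, to 358, without replicate 5 of the miR-21 vector swimming group. A call held in all 23 omissions for 18 genes, 9 above 0 and 9 below 0. Of these 18, 17 were also called without the 3 libraries rich in fat cell genes, where 0.396% of all genes were called. With the higher title numbers alone in the miR-21 vector swimming group 17 were called, where 0.293% of all genes were. A term for the title number, which estimates the same difference, gave 15, and the adipocyte and mesothelial levels as covariates gave 11. These fits reuse most of the libraries that chose the 18, so the counts are no separate support. In 10 of the 18 every empty vector swimming library lay outside the range of the others, against 0.563% of all genes. That share rests on the same counts as the calls.

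The 9 lasting genes below 0 were higher with swimming under the empty vector, where swimming and the title number cannot be told apart. Apart from Mmd, they did not pass the test for swimming under miR-21. Cav1, which forms the coat of caveolae, the small pits that are dense in endothelial cells, stood at 319, 363 and 392 CPM (lowest, median and highest) at rest with the empty vector and at 506, 567 and 708 CPM with swimming. With the miR-21 vector it was at 329, 394 and 454 CPM at rest, and at 421, 370, 352, 411 and 375 CPM in swimming replicates 1 to 5. All 6 empty vector swimming libraries were above all 17 others, which overlapped each other. The swimming effect was 0.73 with the empty vector and -0.03 with miR-21, and the interaction was -0.76 ± 0.12 (SE, edgeR adjusted p = 0.00375). Cav2, the partner of Cav1 in caveolae, whose UTR holds the seed match shown above, had 80.7, 83 and 91.1 CPM in the empty vector swimming group, while the other 3 groups together ran from 49.6 to 72.5 CPM. Its interaction was -0.63 ± 0.11 (edgeR adjusted p = 0.0117), again with no overlap between the empty vector swimming libraries and the rest.

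Akap12, the scaffold of protein kinase A known as gravin, varied little among the empty vector swimming libraries. It had 63.6 ± 4.43 CPM (SD, n = 6) at rest and 91.9 ± 0.821 (n = 6) with swimming under the empty vector, and 72.4 ± 5.96 (n = 6) and 76.2 ± 4.61 (n = 5) under miR-21. The empty vector swimming libraries lay between 90.5 and 92.7 CPM and the highest other library at 83.9. Its interaction was small, -0.46 ± 0.08 (edgeR adjusted p = 0.0106). Tspan2 and Tspan13 encode tetraspanins, membrane proteins that organise other receptors into patches. Tspan2 had 22 ± 2.6 CPM with swimming under the empty vector and 11.3 to 11.7 CPM on average in the other 3 groups, with an interaction of -0.99 ± 0.18. For Tspan13 the interaction was -0.73 ± 0.10 (edgeR adjusted p = 0.00255), the smallest p of the genes below 0, but the highest miR-21 rest library (90.2 CPM) overlapped the empty vector swimming group (86 to 102 CPM).

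In Cyp4b1, Akr1c14 and Mmd the swimming effect under miR-21 was farther below 0 than in the other 6 lasting genes below 0. Cyp4b1, a cytochrome P450 that oxidises fatty acids, was at 34.4 ± 3.43 CPM at rest and 56.6 ± 7.88 with swimming under the empty vector, but also at 49.9 ± 6.21 under miR-21 at rest, and at 41.4 ± 8.43 with miR-21 and swimming. Its interaction of -0.99 ± 0.17 (edgeR adjusted p = 0.00812) thus joins a swimming effect of 0.72 with the empty vector, which passed, and -0.27 with miR-21, which did not. Akr1c14, an aldo-keto reductase that acts on steroids, had an interaction of -0.88 ± 0.16 (edgeR adjusted p = 0.0118). Its lowest mean was in the miR-21 swimming group, 9.67 ± 1.1 CPM, where replicates 1 to 5 had 11.2, 9.71, 8.58, 10.2 and 8.65 CPM. Mmd, a membrane protein of the Golgi, rose with swimming under the empty vector (0.27, edgeR adjusted p = 0.0162) and fell with swimming under miR-21 (-0.36, edgeR adjusted p = 0.0407). The miR-21 swimming libraries had 44.1 to 58.8 CPM of Mmd and the miR-21 rest libraries 61.3 to 70.3, with no overlap. Nxpe4 had an interaction of -0.62 ± 0.12.

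**Figure D2:**
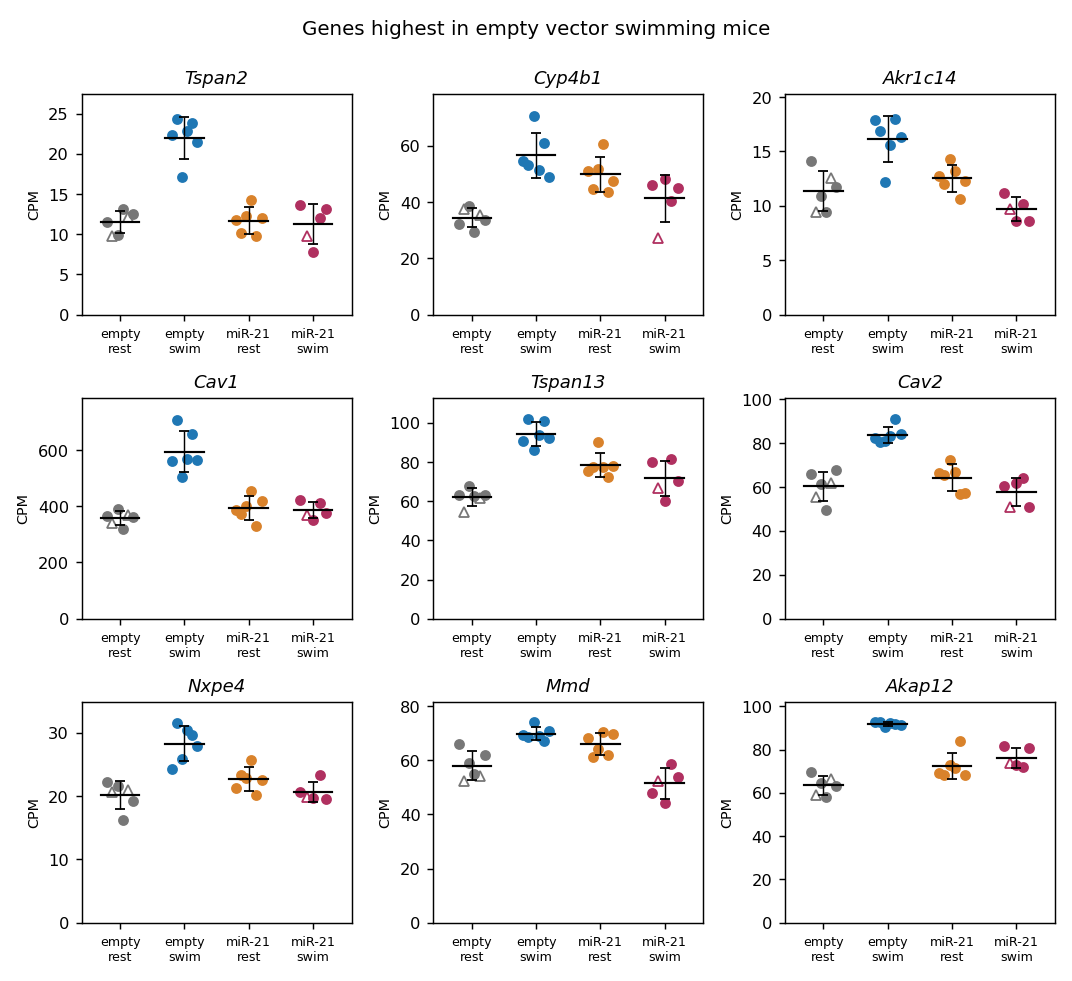
CPM of the 9 genes below 0 whose call held in every single omission, by group; circles and open triangles are libraries, the triangles being the 3 rich in fat cell genes, and bars are mean and SD. In each panel the empty vector swimming group has the highest mean, and for Cav1, Cav2, Tspan2 and Akap12 all 6 of its libraries are above every other.

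Of the lasting genes above 0, Rab4a carried the smallest p in the table. It encodes a small GTPase of early endosomes that returns receptors to the cell surface. It had 12.2, 13.5 and 14.4 CPM (lowest, median, highest) at rest and 3.34, 4.71 and 5.51 CPM with swimming under the empty vector. Under miR-21 it had 13.8, 16.6 and 18.4 CPM at rest and 17.9, 10.5, 15.9, 14 and 18.5 CPM in swimming replicates 1 to 5. The empty vector swimming group stood wholly below the other 3, and the lowest other value, 10.5 CPM, came from the miR-21 swimming library rich in fat cell genes. With the empty vector Rab4a was lower by 1.57 on the log2 scale in the swimming group, and the value with miR-21 was -0.09. The title number splits the empty vector libraries as swimming does, so the 2 cannot be told apart in that fall. The interaction was 1.48 ± 0.18 (edgeR adjusted p = 0.00026), 1.41 to 1.60 over the 23 omissions and 1.64 without the 3 libraries. Wdfy1 encodes another protein of early endosomes, which binds the lipid that marks their surface. Its empty vector swimming libraries had 14 to 25.2 CPM and all others 30.1 to 39.6, and the interaction was 1.02 ± 0.15 (edgeR adjusted p = 0.00311). In the list of 19 caveola and endosome genes 2 were called below 0 and 1 above 0, against 0.215% and 0.326% of all genes. The 3 were Cav1, Cav2 and Rab4a, Wdfy1 is not in the list, and the list median was -0.11. That list was chosen with earlier results of these data known, so its share of calls is a description and not evidence about such genes as a class.

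Ceruloplasmin (Cp), the copper protein of the blood that oxidises iron, was at 199 ± 38.2 CPM at rest and 115 ± 14 with swimming under the empty vector, and at 169 ± 10.4 and 182 ± 35.3 under miR-21. Its 6 empty vector swimming libraries had at most 126 CPM and the lowest other library 153. The interaction was 0.90 ± 0.17 (edgeR adjusted p = 0.0191). Itpk1, a kinase of inositol phosphates, had the same order, with at most 9.84 CPM in the empty vector swimming group, at least 10 elsewhere, and an interaction of 0.59 ± 0.11. It is the 1 of the 18 that lost its call without the 3 libraries (0.47, edgeR adjusted p = 0.0755).

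Slc6a7, a transporter of the amino acid proline, and Htr2b, a serotonin receptor known from heart valves and fibroblasts, were low in the empty vector swimming group and in the miR-21 rest group alike. Slc6a7 had 2.17 to 11.2 CPM in empty vector rest libraries, 0.148 to 1.11 with swimming, 0.31 to 1.35 under miR-21 at rest, and 0.976, 7.65, 1.79, 3.09 and 1.73 CPM under miR-21 with swimming. The interaction was 4.90 ± 0.77 (edgeR adjusted p = 0.00375), and 3.89 (edgeR adjusted p = 0.00673) without the 3 libraries rich in fat cell genes. Htr2b reached 0.744 to 3.01 CPM in the empty vector rest group and at most 0.283 with swimming, which is 13 reads over 6 libraries, and its interaction was 4.41 ± 0.77. A pair of predicted genes was almost silent in the empty vector swimming group. Gm41885 had 6 reads over those 6 libraries, 2 of them at 0, against 53 to 421 reads per library at rest, 46 to 254 under miR-21 at rest and 38 to 264 under miR-21 with swimming. Gm39743 had 1 read in the empty vector swimming group and 2 to 16 reads in each library of the other groups. Their fitted interactions, 7.44 ± 1.10 and 5.44 ± 0.87, depend on how so few reads are modelled. Both groups under miR-21 overlapped the empty vector rest group in both genes.

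**Figure D3:**
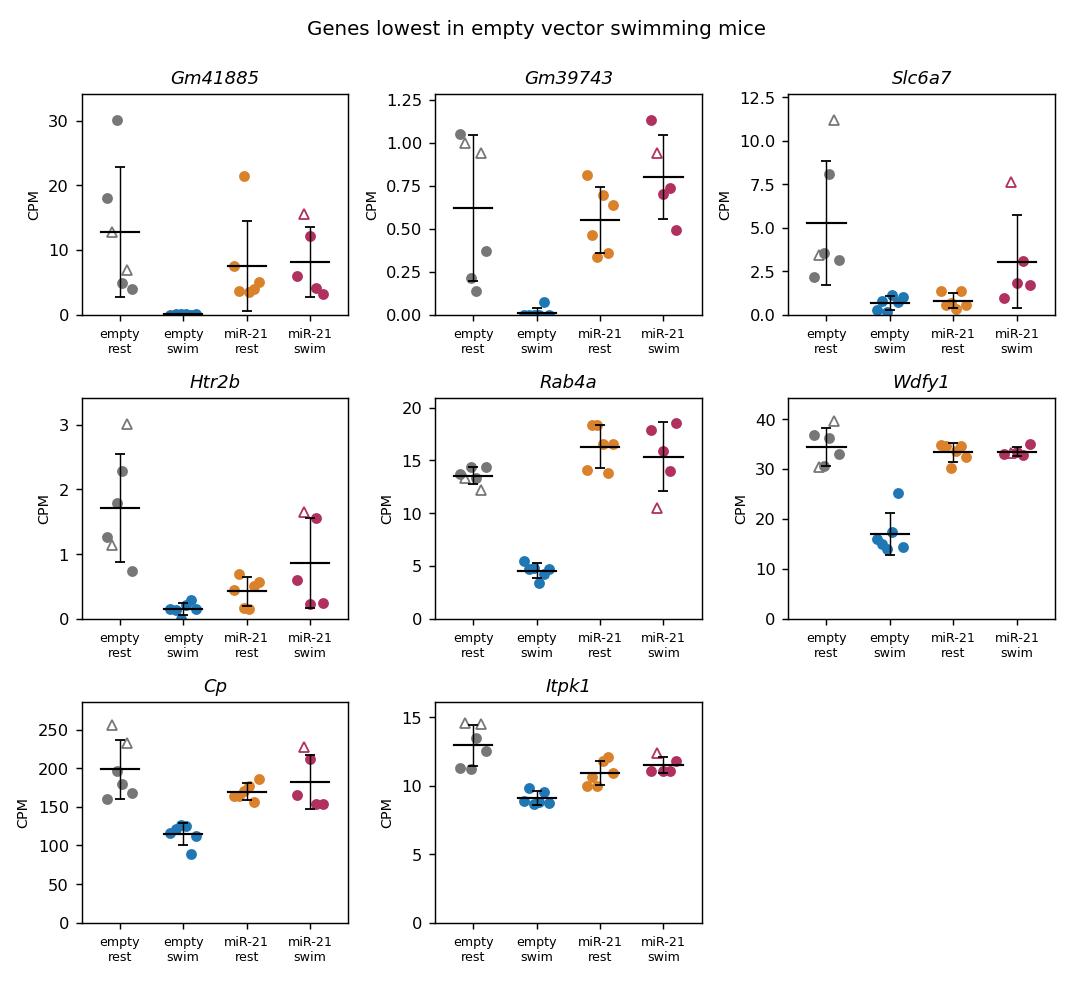
CPM of 8 of the 9 genes above 0 whose call held in every single omission, drawn as for the genes below 0. The empty vector swimming group has the lowest mean in each panel; for Rab4a it lies between 3.34 and 5.51 CPM and every other library at 10.5 or more.

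The largest interactions below 0 that did not last through every omission belonged to Wif1 and Mest. Wif1, a secreted inhibitor of Wnt signalling, had 0.572 to 1.8 CPM at rest and 3.76 to 15.7 CPM with swimming under the empty vector, and 1.12 to 3.13 CPM under miR-21. Its interaction was -2.37 ± 0.48 (edgeR adjusted p = 0.0291) and held in 20 of the 23 omissions. Mest, an imprinted gene active in growth, had 26.9 to 66.9 CPM with swimming under the empty vector and at most 17.7 CPM in any other library. The interaction was -1.86 ± 0.42 (edgeR adjusted p = 0.0444), and it held in 10 omissions. In both genes the empty vector swimming group did not overlap the others. Without the 3 libraries Wif1 had -2.21 (edgeR adjusted p = 0.0626) and Mest -1.87 (0.0755).

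Among the further called genes below 0, Wee1, a kinase that delays mitosis and an output of the circadian clock, differed in shape. The miR-21 vector alone raised it at rest (0.66, edgeR adjusted p = 0.0164), so that its empty vector rest libraries (9.63 to 14 CPM) lay below all others (16.4 to 30.1 CPM). Its interaction was -0.86 ± 0.18. Pxdn, which crosslinks collagen IV in basement membranes (-0.76), Kitl, the ligand of the receptor Kit (-0.73), Arhgap18 (-0.76), and Psme1, an activator of the proteasome (-0.53), had every empty vector swimming library above every other library. Dach1 (-0.81) and Meox2 (-0.69), transcription factors of vessels, and Car8 (-0.77) and Mlf1 (-1.08) overlapped between groups. Fbxl22, a muscle ubiquitin ligase subunit, had -0.96 ± 0.22 and had its lowest mean with miR-21 and swimming (43 to 83 CPM). A further 7 called genes below 0, Enho, Pcdh19, Slc28a2, Lsm8, Strap, Pole4 and Yipf4, had interactions from -0.71 to -0.32.

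Of the 15 named interactions above 0, the 4 largest were those of Cfd, Car3, Cidec and Adipoq, genes known from fat cells. Cfd, the fat cell protease adipsin that also starts the alternative complement pathway, had 8.47, 148, 6.43, 4.11, 114 and 1.04 CPM in empty vector rest replicates 1 to 6. It had 0.297 to 1.68 CPM in the empty vector swimming group, 0.153 to 1.92 in the miR-21 rest group, and 0.6, 147, 2.42, 0.515 and 6.01 CPM in miR-21 swimming replicates 1 to 5. The libraries with 114 to 148 CPM are the 3 that stand apart, and the groups overlapped without them. The fitted interaction was 11.13 ± 2.17 (edgeR adjusted p = 0.0291), and 4.17 (0.0698) without the 3 libraries. Adiponectin (Adipoq), the carbonic anhydrase Car3, the lipid droplet protein gene Cidec and the cytochrome P450 gene Cyp2e1 followed the same libraries, with interactions of 9.49, 9.78, 9.62 and 8.15. None of these 5 was called without replicate 2 of the miR-21 swimming group (edgeR adjusted p from 0.0954 to 0.228).

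Some matrix genes differed between all libraries of the empty vector groups. Comp, a protein of cartilage that is made in scars, had 35.5, 168, 33.8, 304, 247 and 57.2 CPM in replicates 1 to 6 of that group, so that replicate 4 was high as well. It had 1.26 to 29.6 CPM in the empty vector swimming group, 4.18 to 28.2 in the miR-21 rest group, and 8.41, 186, 16.2, 45.9 and 23.3 CPM in the miR-21 swimming group. All 6 empty vector rest libraries were above all empty vector swimming libraries. The interaction was 6.28 ± 1.22 (edgeR adjusted p = 0.0291), and 4.63 (0.0815) without the 3 libraries. Wisp2, a secreted matrix protein of the CCN family (3.75 ± 0.79), Chil1, a chitinase-like protein of injured tissue (8.03 ± 1.74), and Prg4, the joint lubricant lubricin (3.01 ± 0.62), were likewise higher in every empty vector rest library than in any empty vector swimming library, and highest in replicate 2 among the miR-21 swimming libraries. Prg4 had 33.9 to 130 CPM at rest and 12.2 to 18.9 CPM with swimming under the empty vector, 25.6 to 31.6 CPM under miR-21 at rest, and 19.7, 119, 21.1, 29.8 and 19.4 CPM under miR-21 with swimming. Its empty vector swimming libraries were below every other library, while the miR-21 groups overlapped. Anxa8 (4.69), Apol6 (4.84), Fam180a (3.52), Ism1 (2.77) and LOC108169093 (5.94), a gene similar to a retroviral envelope whose reads could come from its copies, completed the 15 largest by the naming rule, each highest among the miR-21 swimming libraries in replicate 2.

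**Figure D4:**
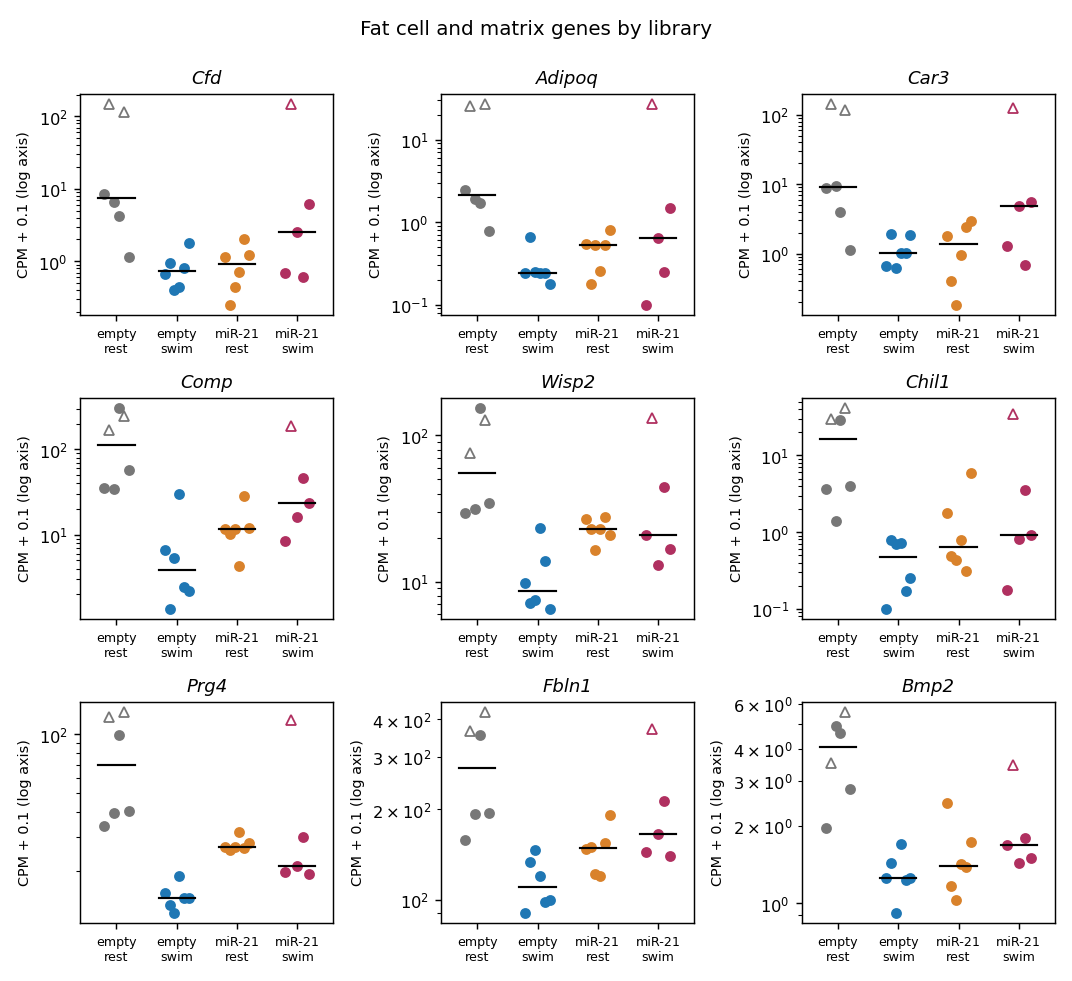
CPM plus 0.1 on a log axis for 9 fat cell, matrix and signalling genes with an interaction above 0; lines are group medians, and open triangles the 3 libraries rich in fat cell genes. For Cfd, Adipoq and Car3 the triangles stand far above the circles of their groups, while for Comp, Wisp2 and Prg4 the empty vector rest group is above the empty vector swimming group without them too.

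Secreted signals were among the other called genes above 0. Bmp2, a ligand of the BMP pathway, had 1.87, 3.41, 4.79, 4.51, 5.46 and 2.68 CPM in the empty vector rest group, 0.817 to 1.6 with swimming, 0.928 to 2.36 under miR-21 at rest, and 1.58, 3.35, 1.33, 1.69 and 1.4 CPM under miR-21 with swimming. Its interaction was 2.05 ± 0.41 (edgeR adjusted p = 0.0291). Here both miR-21 without swimming and swimming without miR-21 went with a lower level (-1.40, edgeR adjusted p = 0.0197, and -1.66, 0.00148). Inhbb, a subunit of activin B, had 1.37 ± 0.32, and the chemokine genes Cxcl14 and Ccl21a 2.10 ± 0.43 and 2.09 ± 0.44. Ccl21a has near-identical copies, so its reads are uncertain. Fbln1, an extracellular matrix protein, had 1.78 ± 0.37, and Larp6, which binds collagen messenger RNAs, 1.82 ± 0.39. None of these 6 was called without the 3 libraries, when their interactions ran from 0.99 to 1.64. A further group of small interactions above 0, Cabin1, Golgb1, Ccdc9, Bcl9l, Cc2d1b and Plagl2, ran from 0.32 to 0.46, and in 4 of these 6 (Cabin1, Golgb1, Ccdc9 and Cc2d1b) the miR-21 swimming group had the highest mean. A further 8 called genes above 0 ran from 0.72 (Slc35e4) to 4.74 (Rgs1, a brake on G protein signalling). They include Slc13a4, a sulfate transporter, Dtx1, a ubiquitin ligase of the Notch pathway, and Kcnma1, a potassium channel, with Ifitm10, Dmtn and Itih3 beside them. Of these 8, Slc13a4 and Slc35e4 were also called without the 3 libraries, while Kcnma1 and Rgs1 did not pass the count filter there and were not tested. The threshold fell between Pole4 (-0.41, edgeR adjusted p = 0.0499) and Inhbb (0.0479) on the inside and Serpina3i (4.68, 0.0513) and the immediate early gene Fosb (2.99, 0.0514) on the outside.

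Counts over the 43 lists of pathways and cell types, of which 845 genes were tested, set these genes beside their relatives. Only 17 of the 73 called genes are in any list. With 0.541% of all genes called, 0 called in a list of such a size says little about it. All 30 cell cycle genes had an interaction below 0, with a median of -0.83, but 0 were called and 5 had an unadjusted p under 0.05, where 8.73% of all genes had one below 0. Cenpf, a kinetochore protein, had -1.37 ± 0.43 (edgeR adjusted p = 0.0984), with 18 to 38.8 CPM in the empty vector swimming group and 4.38 to 24 CPM in the others. With the 3 libraries left out the median was -1.91, 28 of 30 had an unadjusted p under 0.05 and a value below 0 (6.77% of all genes did, and 6.09% had one above 0), and 1 was called (0.396% of all genes), the cyclin gene Ccna2 (-2.30, edgeR adjusted p = 0.0438). The DNA replication list went the same way, from 4 of 27 to 17 of 27 at the unadjusted level. With the miR-21 swimming libraries of the higher title numbers alone the cell cycle median was -2.12, 28 of 30 passed below 0 unadjusted (6.70% of all genes did, and 6.80% above 0) and 6 of 30 were called, where 0.293% of all genes were.

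Nuclear genes of the respiratory chain were all below 0, 31 of 31, with a median of -0.44, 24 at an unadjusted p under 0.05 (8.73% of all genes below 0) and 0 called. Cox7a1, a subunit of complex IV, had 318 to 481 and 416 to 551 CPM at rest and with swimming under the empty vector, 432 to 624 CPM under miR-21 at rest, and 410, 188, 406, 366 and 416 CPM under miR-21 with swimming. Its interaction was -0.73 ± 0.22 (edgeR adjusted p = 0.0831), and the lowest value came from replicate 2. Fatty acid oxidation genes had a median of -0.37, with 13 of 29 below 0 at the unadjusted level, against the same 8.73%, and 0 called. Leaving out the 3 libraries gave medians of -0.19 and -0.20, with 12 of 31 and 8 of 29 below 0 at that level, where 6.77% of all genes were.

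The endothelial list, the list for the cells richest in caveolae, had 0 of 29 called and 10 below 0 at an unadjusted p under 0.05, with a median of -0.21 (8.73% of all genes were below 0 at that level), and 9 of 29 with -0.19 without the 3 libraries (6.77% of all genes). Cdh5, the adhesion protein of endothelial junctions, had -0.43 ± 0.13 (edgeR adjusted p = 0.0818), and the receptor Tek -0.35 ± 0.09 (0.0594). The summed level of all 29 markers ran from 3145 to 3661 CPM in the empty vector swimming group, from 2690 to 3125 CPM at rest with the empty vector, and from 2706 to 3045 CPM with miR-21, with 0 markers at 0 in all libraries. That sum thus moved in the direction of Cav1 and Cav2, and its part in their result was not tested. Sox7 had an interaction of -0.81 ± 0.26 (edgeR adjusted p = 0.103), with 42, 44.3 and 69.6 CPM (lowest, median, highest) in the empty vector swimming group and 20.3 to 42.6 CPM elsewhere. The list of published miR-21 targets had 0 of 24 called, where 0.541% of all genes were, so this 0 says little about them. At an unadjusted p under 0.05 it had 1 above 0 and 3 below 0, against 12.7% and 8.73% of all genes. Its median was -0.0047. Vmp1, whose gene overlaps that of miR-21, had 0.32 ± 0.18 (edgeR adjusted p = 0.293).

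Among the lists with medians above 0 were those of activated fibroblasts and immune cells. Of 29 activated fibroblast genes, 17 were above 0 at an unadjusted p under 0.05 (12.7% of all genes), and 4 of 28 without the 3 libraries (6.09%). With all libraries all 29 had values above 0, with a median of 1.94 and 2 called, Comp and Wisp2. Of all genes 0.326% were called above 0. The summed level of the activated fibroblast genes ran from 1158 to 3884 CPM at rest and from 834.9 to 2308 CPM with swimming under the empty vector. Under miR-21 it ran from 631 to 1094 CPM at rest and from 627.1 to 3640 CPM with swimming. Of 21 complement genes 2 were called against the same 0.326%, Cfd among them, with a list median of 1.56. The lists of neutrophils (5.95), mesothelium (5.09), T, NK and B cells (2.40), inflammatory cytokines (1.70), MHC class II (1.34) and macrophages (1.05) had high medians too, with 0 called except Cxcl14 and Ccl21a. For Ngp, a granule protein of neutrophils, replicate 2 under miR-21 with swimming had 241 CPM and any other library at most 41.6. Leaving out the 3 libraries gave these lists medians of 0.55, 0.62, 0.90, 1.57, 0.19, 0.09, 0.03 and -0.11 in the order given. Fewer genes passed the filter then, 28 for 29 in activated fibroblasts, 10 for 13 in neutrophils, 14 for 17 in mesothelium, 14 for 17 in T, NK and B cells and 23 for 26 in cytokines, so these medians are not over the same genes. Cardiac stress genes kept a median near 1 (1.14 with all libraries and 0.95 without the 3), with 0 of 13 called, where 0.541% of all genes were. At an unadjusted p under 0.05, 6 of the 13 were above 0 with all libraries (12.7% of all genes). Without the 3 libraries 7 of 13 were (6.09% of all genes), again with 0 called. Gdf15, a stress hormone, had 2.72 ± 0.81 (edgeR adjusted p = 0.0852).

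**Figure D5:**
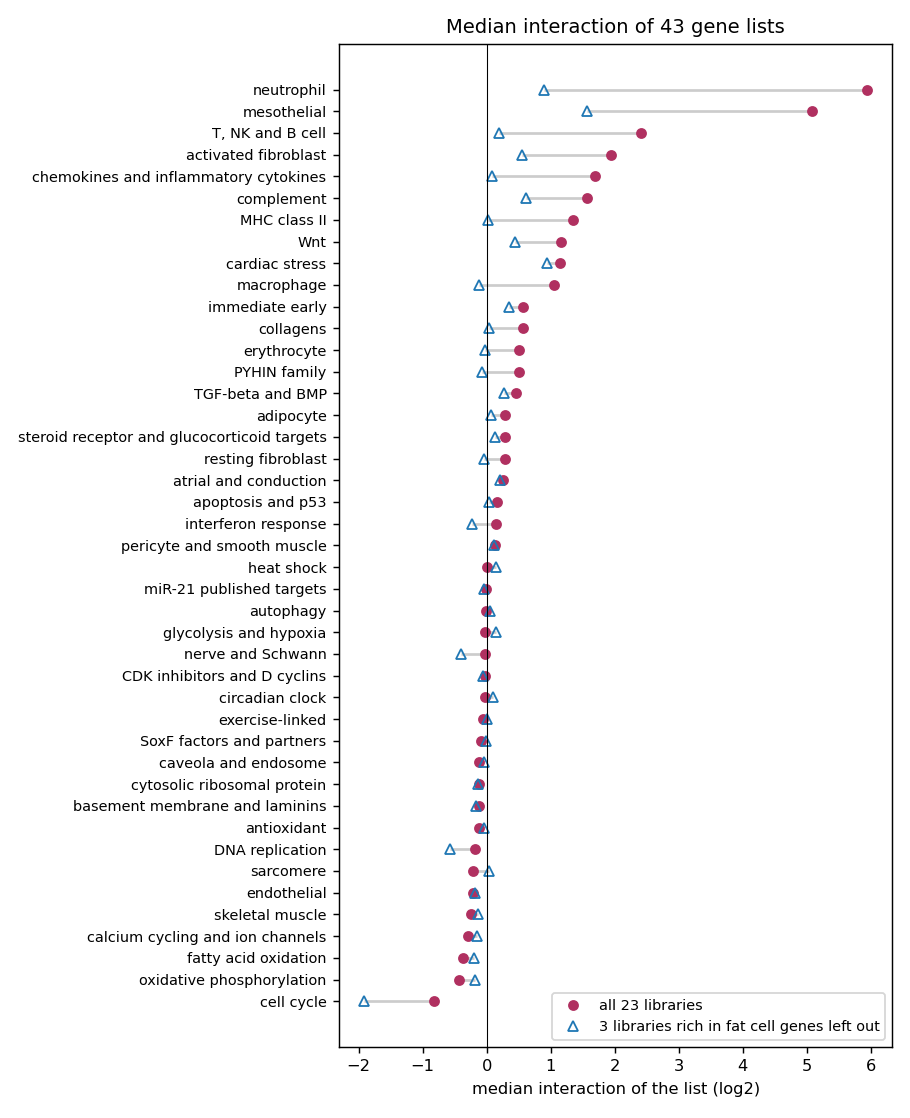
Median interaction (log2) of each of the 43 lists with all 23 libraries (circles) and without the 3 libraries rich in fat cell genes (triangles). The neutrophil and mesothelial medians move most, and the cell cycle median lies farther below 0 without the 3 libraries.

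Among the remaining lists, medians of collagens (0.56), TGF-beta and BMP (0.45, Bmp2 and Inhbb called), resting fibroblasts (0.28) and interferon response (0.14) were above 0, and those of sarcomere (-0.21), calcium cycling (-0.29) and cytosolic ribosomal proteins (-0.11) below. Without the 3 libraries the medians of resting fibroblasts, interferon response and sarcomere changed sign, to -0.0338, -0.234 and 0.04. So did those of PYHIN genes (0.50 to -0.0765), erythrocytes (0.51 to -0.0262), glycolysis and hypoxia (-0.03 to 0.151), circadian clock (-0.03 to 0.101), exercise-linked genes (-0.06 to 0.0134) and autophagy (-0.01 to 0.0496). Of 27 glycolysis and hypoxia genes, 7 were above 0 at an unadjusted p under 0.05 with all libraries (12.7% of all genes). Without the 3 libraries 10 were (6.09% of all genes), and 0 were called in either fit. Heat shock (0.0012) and autophagy (-0.01) genes had 0 called of 17 and 21, where 0.541% of all genes were called, so these zeros say little about such short lists. Wnt genes had a median of 1.16 and Wif1 called in the opposite direction, and the circadian clock list a median of -0.03 with Wee1 called; neither was called without the 3 libraries. The PYHIN gene Pydc3, which has near-identical relatives, had 2.65 to 4.44 CPM in the empty vector swimming group and at most 0.602 CPM in any other library, and its interaction of -2.52 ± 1.04 did not pass (edgeR adjusted p = 0.171). Its values under miR-21 rest on few reads.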

How the data were processed

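RNA from mouse hearts was sequenced after enrichment of polyadenylated messenger RNA with a stranded kit, per the labels' protocols. The authors deposited raw counts per gene and library, on the genome build GRCm39 per the submitters' processing notes; the aligner and counter: not given in the sources used here. All 23 count columns were matched to samples by title. Total counts of 12744241 to 14657630 per library set the precision of low genes.

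Genes were filtered by edgeR's filterByExpr by group, scaled by TMM, and fitted with a robust quasi-likelihood model with 1 coefficient per group (edgeR 4.0.16, R 4.3.3). The SE is the absolute log2 value over the root of F, and p-values were adjusted over all 13501 genes tested. CPM use the same library sizes. The fit was run on simulated counts drawn from a common mean per gene, with known changes in the miR-21 swimming group alone. Those counts held no libraries like the 3 rich in fat cell genes and no shift with the title number. The simulation therefore says nothing about how the fit handles either. The genes named in full are Sox7, Vmp1, the 15 largest interactions in each direction among called genes with a mean of at least 1 CPM (Gm-numbered and Rik symbols left out), and up to 4 called genes, or the 2 with the smallest p where none is called, from each list. The 18 genes called in every omission of 1 library, and the genes called without 3 libraries, were named after their values were seen. Some called genes count in the totals and are not reported here by name. Lists and comparisons were chosen with earlier results of these data known. UTRs came from GENCODE M21 transcripts of build GRCm38, and miRNA sequences from RefSeq. Alternatives were other scalings and filters, DESeq2 1.42.0, limma 3.58.1 (voom), a fold minimum of 1.5, a title number term, the higher title numbers alone, leaving out 3 libraries, marker levels as covariates, and leaving out each library.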

Additional observations from a re-analysis of the deposited data

Results flagged for a closer look

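By the test of the difference itself, swimming had unequal effects under the 2 vectors in the 73 called genes. The values that follow are interactions (log2). Of the 29 below 0, the largest were Wif1 (-2.37), Mest (-1.86), Mlf1 (-1.08), Tspan2 (-0.99), Cyp4b1 (-0.99), Fbxl22 (-0.96), Akr1c14 (-0.88), Wee1 (-0.86), Dach1 (-0.81) and Car8 (-0.77). Smaller ones were those of Cav1 (-0.76), Arhgap18 (-0.76), Pxdn (-0.76), Tspan13 (-0.73), Kitl (-0.73), Enho (-0.71), Meox2 (-0.69), Pcdh19 (-0.66), Cav2 (-0.63) and Nxpe4 (-0.62), and then Mmd (-0.62), Slc28a2 (-0.61), Psme1 (-0.53), Lsm8 (-0.51), Strap (-0.5), Akap12 (-0.46), Pole4 (-0.41) and Yipf4 (-0.32). The 44 above 0 include Cabin1 (0.32), Golgb1 (0.35), Ccdc9 (0.42), Bcl9l (0.46), Cc2d1b (0.46), Plagl2 (0.46), Itpk1 (0.59), Slc35e4 (0.72), Dmtn (0.81), Cp (0.9) and Wdfy1 (1.02). Next in size came Inhbb (1.37), Rab4a (1.48), Fbln1 (1.78), Ifitm10 (1.78), Larp6 (1.82), Bmp2 (2.05), Ccl21a (2.09), Cxcl14 (2.1), Dtx1 (2.54), Ism1 (2.77) and Prg4 (3.01). Larger were Slc13a4 (3.02), Itih3 (3.37), Fam180a (3.52), Wisp2 (3.75), Kcnma1 (4.04), Htr2b (4.41), Anxa8 (4.69), Rgs1 (4.74), Apol6 (4.84), Slc6a7 (4.9) and Gm39743 (5.44), and the largest LOC108169093 (5.94), Comp (6.28), Gm41885 (7.44), Chil1 (8.03), Cyp2e1 (8.15), Adipoq (9.49), Cidec (9.62), Car3 (9.78) and Cfd (11.13).

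Among 176 groups of 5 or 6 libraries over 44 genes, 33 held 1 library far from the others (Dixon's test at the 95% level). Chance flags about 1 in 20 of unselected groups. Most of the 44 genes were chosen by their interaction in these same libraries, so that rate is no yardstick for the 33. Under miR-21 with swimming, replicate 2 was the high library for Cfd at 147 CPM, Car3 at 126, Cidec at 15.2, Adipoq at 27, Cyp2e1 at 23.8, Comp at 186, Wisp2 at 132, Prg4 at 119, Chil1 at 34.9, Anxa8 at 18, LOC108169093 at 6.65, Ism1 at 5.59 and Apol6 at 3.71 CPM. In the same group replicate 4 stood apart for Nxpe4 at 23.4 CPM, and replicate 5 for Wee1 at 26 and Wdfy1 at 35.1 CPM. In the empty vector swimming group these were replicate 5 for Cav2 (91.1 CPM), Wdfy1 (25.2) and Gm39743 (0.0708), replicate 4 for Comp (29.6) and Ism1 (2.09), replicate 3 for Wif1 (15.7), and replicate 2 for Adipoq (0.558) and LOC108169093 (0.279). In the miR-21 rest group they were replicate 5 for Akap12 (83.9 CPM), Arhgap18 (25.2) and Comp (28.2), replicate 3 for Tspan13 (90.2) and Gm41885 (21.4), replicate 2 for Mest (6.37), replicate 4 for Prg4 (31.6) and replicate 6 for Chil1 (5.75). In the empty vector rest group replicate 2 stood apart for Vmp1 at 88.3 CPM. What set these libraries apart was not tested.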

How the results depend on the processing

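No paired analysis was possible because replicates were numbered in accession order and the labels tie no library of 1 group to a library of another. Counts of called genes are given as all, above 0 and below 0, against 73, 44 and 29. DESeq2 gave 719, 473 and 246, limma voom 147, 59 and 88, and a fold minimum of 1.5 in edgeR 5, 5 and 0 (816 genes at an unadjusted p under 0.05). A term for the title number gave 25, 9 and 16, and the higher title numbers alone 40, 15 and 25, and these 2 fits estimate the same difference. Without the 3 libraries the counts were 53, 24 and 29, and 24 of the 69 called genes still tested kept their call. With marker levels as covariates the counts were 65, 23 and 42, and 13 of the 73 kept theirs. Leaving out each library in turn gave 18 to 358 in all, 9 to 244 above 0 and 9 to 114 below 0. The total was lower by more than 1.5 times without empty vector rest replicates 4 and 5 (38 and 19), empty vector swimming replicates 1, 2, 3, 5 and 6 (25, 38, 45, 18 and 27), miR-21 rest replicates 1 to 4 (34, 25, 21 and 26) and miR-21 swimming replicate 2 (32). It was higher by more than 1.5 times without empty vector rest replicates 3 and 6 (147 and 174) and miR-21 swimming replicates 1, 3 and 5 (243, 305 and 358). Under the marker covariates the sign turned for Cidec (-0.31), Vmp1 (-0.14), Pdgfra (-0.056), Ngp (-0.31), Ciita (-0.63), Oas3 (-0.34), Cxcl10 (-0.31), Aim2 (-0.16), Mbp (-0.33) and Alas2 (-0.20), of which Cidec alone is a called gene. Cidec is itself part of the adipocyte level used as a covariate, so its turn is no separate result. Ciita also turned without the 3 libraries (-0.11), and Cxcl10 in limma voom (-0.16). The causes were not tested. Genes with few reads in the empty vector swimming group, such as Gm39743 with 1, have fitted values that depth limits.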

Other observations

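Without the 3 libraries rich in fat cell genes, 53 of 13389 genes were called for the interaction (0.396%), and 24 of these were among the 73 called with all libraries. The 29 others include Nnt, the mitochondrial transhydrogenase that makes NADPH (1.04 ± 0.14, edgeR adjusted p = 0.00173, against 0.77 and 0.10 with all libraries). Nnt had 740 to 1100 CPM at rest and 504 to 615 CPM with swimming under the empty vector, 1180 to 1370 CPM under miR-21 at rest, and 1460, 536, 1640, 1040 and 1470 CPM in replicates 1 to 5 under miR-21 with swimming. Replicate 2 of that last group thus lay within the range of the empty vector swimming group, as the other 4 did not. Inbred mouse lines are known to differ in whether Nnt is intact. The labels name no strain, and Nnt followed the title numbers only in part, since replicates 3 to 5, with the higher numbers, had 1040 to 1640 CPM. Whether the mice or the labels of these libraries are mixed was not tested, and the Nnt values and any reading of replicate 2 are limited by that. The whole empty vector swimming group was low in Nnt and enters every interaction. The same limit therefore holds for the other called genes, above all those in which that group stands apart.

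The empty vector swimming group was high for Ccna2, Uhrf1 and Racgap1, genes of dividing cells. Replicate 2 of the miR-21 swimming libraries stood nearest to it in these genes. They were chosen among genes called without the 3 libraries, replicate 2 included, and not with all, which favours a high replicate 2. Cenpf went the other way, with 19.5, 7.35, 20.8, 6.7 and 24 CPM in miR-21 swimming replicates 1 to 5. Ccna2, a cyclin of S phase and mitosis, had 5.79 to 17.7 CPM in the empty vector swimming group, 1.46 to 4.64 CPM in both rest groups, and 2.48, 10, 1.01, 1.55 and 0.659 CPM in the miR-21 swimming group. Uhrf1, which maintains DNA methylation at replication, reached 8.47 CPM in replicate 2 under miR-21 with swimming and 2.03 to 2.55 CPM in the other libraries of that group, and Racgap1, a protein of cytokinesis, 8.3 CPM against 1.32 to 3.3. Without the 3 libraries their interactions were -2.30, -1.67 and -1.90 (edgeR adjusted p = 0.0438, 0.0304 and 0.0495). The fatty acid binding protein gene Fabp5 (-0.79), Abracl (-0.82), Rell1 (-0.72) and the collagen chaperone gene Fkbp10 (-0.64) were also called below 0 then, and the kinase genes Mapk4 (0.79) and Ak4 (0.60) above 0.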
